A study of Mus musculus with 38 samples.

Results

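Ribosome footprints on 10 genes for enzymes of glycolysis and lactate formation, Gpi1, Aldoa, Tpi1, Gapdh, Pgk1, Eno1, Eno2, Pkm, Ldha and Ldhb, were measured in primary mouse cortical neurons. The genes were chosen by name, although with earlier results of these data known, and each was represented by its longest transcript. They are 10 of 22443 genes in the coding sequence (CDS) counts. Glycolysis splits glucose into pyruvate in the cytosol and yields ATP and NADH, and lactate dehydrogenase converts pyruvate and lactate into each other. Neurons take up glucose and lactate, and glycolytic enzymes are found in the soma, in axons and at synapses. Several of these enzymes exist as paralogs that differ between cell types. Eno2 encodes the enolase that is enriched in neurons, whereas Ldha and Ldhb encode the subunits that combine into the lactate dehydrogenase tetramer.

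The study used proximity labelling with ribosome profiling (PL-Ribo-seq), in which TurboID, a biotin ligase, labels proteins near it, and streptavidin then isolates the ribosomes in the labelled complexes. Neurons from mid-gestation CD-1 mouse embryos carried lentivirus for PSD95-TurboID, which has elements of the postsynaptic protein PSD95 that target it to dendrites, or for Pan-TurboID, which has no localization signal. Both were expressed from a doxycycline-inducible promoter that is not restricted to neurons. Each sample gave an input library, a kept portion of the monosomes, and a pulldown library, and several dishes were combined for a sample.

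The KCl experiment held 24 libraries, with 3 each of input and pulldown for both baits, at rest and after 1 h in 55 mM KCl. Per the labels, neurons that were to be depolarized or given DHPG had first been silenced with tetrodotoxin and DL-AP5 over 2 h and were kept for a further 30 min afterwards, and no such silencing is stated for the resting groups. The DHPG experiment held 3 inputs and 3 pulldowns from PSD95-TurboID neurons exposed for 10 min to 100 µM DHPG, which activates metabotropic glutamate receptors of group I. Knockdown was measured in 8 PSD95-TurboID libraries with siRNA against eIF4G2, an initiation factor, at 20 nM for 72 h, 2 each of input and pulldown at rest and after KCl. All 14 groups were given cycloheximide, which arrests elongating ribosomes, for 2 min and then biotin, for 30 min per the labels, although the study's own text gives a shorter time with DHPG. The DHPG and knockdown experiments had no untreated groups of their own here, so that treatment and experiment cannot be told apart wherever their libraries were set against the KCl experiment.

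Each library held 5906281 to 35643247 aligned footprints in all and 2047337 to 14637747 in the CDSs of the longest transcripts. The knockdown, KCl and bait labels were checked on genes that should follow them. Eif4g2 stood at 284 to 338 CPM (counts scaled to the CDS total of the library, times 1000000) in knockdown inputs and 445 to 811 CPM in the other inputs, the early genes Arc, Fos, Egr1 and Npas4 were all higher with KCl in inputs, and Dlg4, which the bait itself partly encodes, stood at 1370 to 3096 CPM in resting PSD95-TurboID pulldowns and 39.7 to 50.1 CPM in resting Pan-TurboID pulldowns. After KCl Dlg4 spread widely in PSD95-TurboID pulldowns, from 338 to 5223 CPM, against 15.7 to 26.5 CPM in Pan-TurboID pulldowns. The early genes gave no such check of DHPG. Arc was higher in DHPG inputs than in resting inputs of the same bait (31.1 to 34.3 and 11.5 to 17.2 CPM), but Fos (37.6 to 41.4 and 184 to 465 CPM), Egr1 (79.4 to 94.9 and 160 to 278 CPM) and Npas4 (7.94 to 10 and 62.1 to 75.7 CPM) were lower. All 10 neuron markers had counts in every set of libraries, with a summed level of 8225 to 11580 CPM in inputs of the KCl experiment. Astrocyte markers summed to 748 to 1424 CPM in resting inputs and microglia markers to 1.3 to 3.82 CPM. In bulk libraries, fewer cells of a type and less RNA per cell cannot be told apart, and footprint levels cannot separate more mRNA from more ribosomes per mRNA.

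Many copies of these genes lie elsewhere in the genome, which limits what a count can be assigned to. The mouse genome of the same assembly (mm10) was searched for exact copies of every 28-nt window of each CDS. All windows of Gapdh (chr6:125162032-125165293, minus strand) and of Pgk1 (chrX:106187251-106203279, plus strand) had at least 1 further copy. For Gapdh a window had up to 136 further copies, while copies of Pgk1 windows lay at 7 loci, 4 of them with at least 100 windows, and Gm5537 and Pgk1-rs7 each held all 1227. The share of windows with a copy elsewhere was 90.5% for Eno1, 79.9% for Pkm, 64.2% for Ldha, 58.1% for Ldhb, 53.5% for Gpi1, 48.6% for Aldoa, 37.1% for Tpi1 and 0% for Eno2. Eno2 (chr6:124761293-124768322, minus strand, 11 coding exons) was therefore the only one of the 10 whose CDS had no exact copy of that length.

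Counts were deposited for Pgk1 and for exons without a single unique window. Footprints that match several places had thus not all been discarded, and how they were placed is not given in the sources used here. Eno1b, an annotated gene that shares 1124 windows with Eno1, held 1.58 to 7.12 times the count of Eno1 itself, with a median of 3.6 over 38 libraries. Gapdh, usually among the most highly expressed genes of a cell, had 22 to 508 counts per library, against 985 to 11711 for Pkm. The levels of Gapdh, Pgk1 and Eno1 given here are those assigned to these loci and are uncertain as levels of the enzymes.

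In the 6 resting inputs of the KCl experiment, levels per length of CDS ran from Aldoa down to Gapdh over a wide range. Aldoa, the aldolase that cleaves fructose 1,6-bisphosphate, had 511, 574 and 662 CPM per kb of CDS (lowest, median and highest library). Pkm, pyruvate kinase, had 455, 555 and 622 CPM per kb, so that the first 2 genes of the order overlapped. This level of Pkm rests on a transcript with the M2 exon, which held fewer footprints than the M1 exon in every library. With the counts of the M1 exon in its place Pkm had 549, 643 and 721 CPM per kb and lay above Aldoa in all 6 libraries, against 1 of 6 before, so that the order turned with the transcript used for Pkm. Aldoa was not changed likewise, although its first coding exon, of 141 nt, is nearly empty. That exon had 1.11 CPM per kb in these inputs, against 1412 on exon 2, and counts in the length of Aldoa. The order without it was not tested, so which of the 2 genes leads is open.

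Tpi1, which interconverts the triose phosphates, had 342, 429 and 517 CPM per kb, and Pgk1, the first step that makes ATP, had 379, 427 and 464 CPM per kb. These also overlapped each other. Eno2 followed with 275, 317 and 337 CPM per kb, below every library of Pgk1 and of Tpi1.

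Ldhb had 223, 250 and 264 CPM per kb and Gpi1, the isomerase that makes fructose 6-phosphate, had 199, 238 and 254 CPM per kb. Eno1 had 129, 135 and 139 CPM per kb, and Ldha 106, 134 and 169 CPM per kb. The pairs Ldhb and Gpi1, and Eno1 and Ldha, overlapped within each pair, and Gapdh stood apart at 26.5, 30.7 and 46.4 CPM per kb. Over all 19 pulldowns the order began with Aldoa and Pkm as well, at medians of 503 and 407 CPM per kb, while Ldha had 231 and Pgk1 220 CPM per kb. The order of these 2 differed by experiment in group means, but not in every library. In the KCl experiment Ldha lay above Pgk1 in resting PSD95-TurboID pulldown 3 (327 and 216 CPM per kb). It also did so in depolarized PSD95-TurboID pulldown 1 (204 and 154 CPM per kb). In the means of all 4 pulldown groups of the KCl experiment Pgk1 lay above Ldha (273 and 215 CPM per kb with Pan-TurboID at rest, 266 and 255 with PSD95-TurboID at rest), and in DHPG and knockdown pulldowns Ldha lay above Pgk1 (382 and 138 with DHPG). Over all 19 inputs Ldha had a median of 153 CPM per kb and Pgk1 407 CPM per kb. The 10 genes together held 0.405% ± 0.012 (SD, n = 3) of CDS counts in resting PSD95-TurboID inputs and 0.349% ± 0.0186 in the pulldowns, 0.402% in DHPG inputs and 0.29% in the pulldowns, and 0.331% in resting knockdown inputs and 0.217% in the pulldowns.

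**Figure D1:**
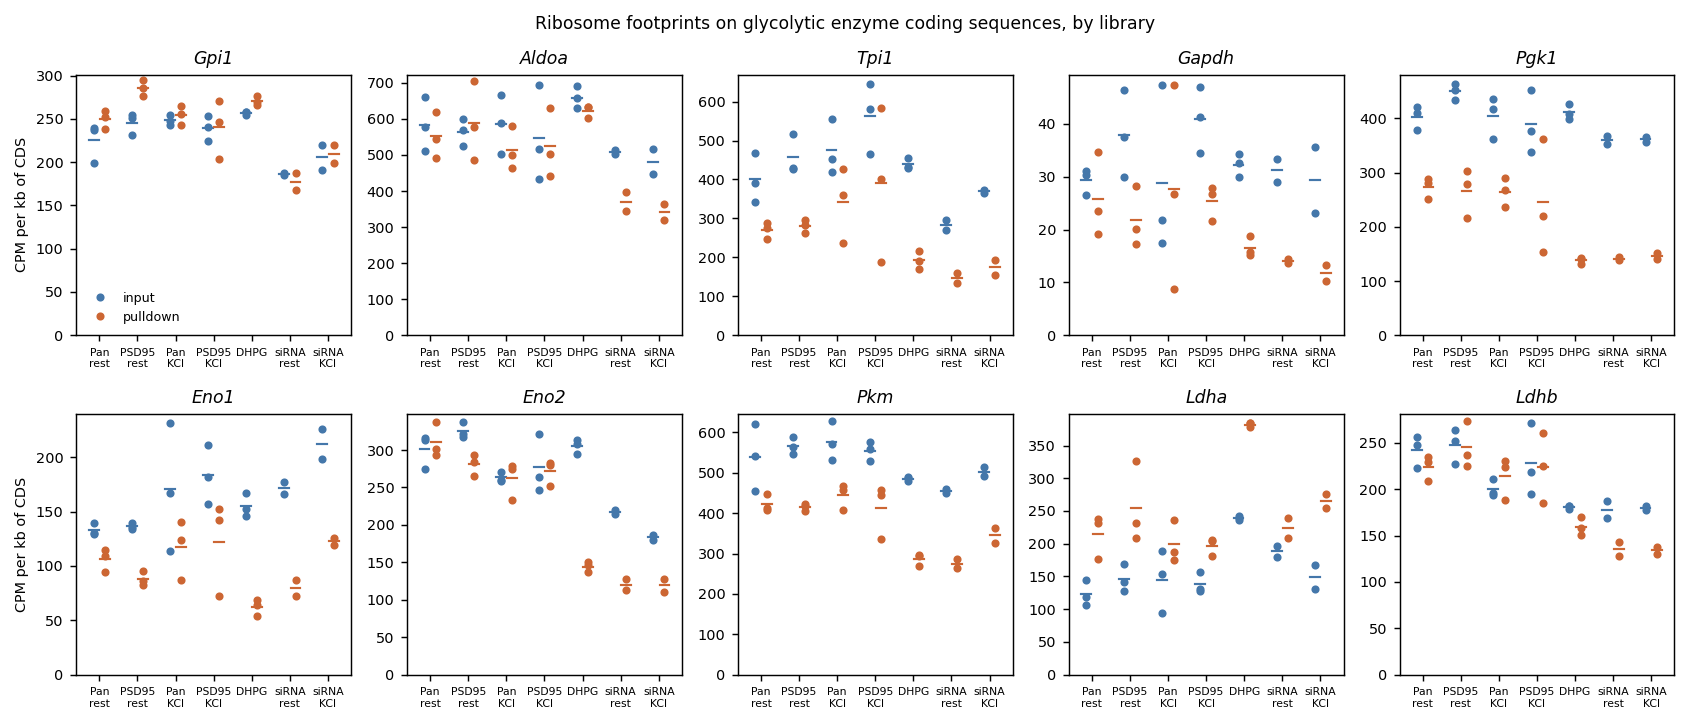
Footprint levels of the 10 genes in each of the 38 libraries, in CPM per kb of CDS on a linear axis from 0, with inputs in blue, pulldowns in orange and short lines at group means. Pgk1 was lower and Ldha higher in DHPG pulldowns than in DHPG inputs with no overlap, and Eno1 inputs after KCl spread from 114 to 231 CPM per kb.

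The first comparison asked which enzymes were footprinted more or less in dendritically targeted pulldowns at rest than in the whole culture. The resting PSD95-TurboID pulldowns were set against the mean of both resting inputs. Ldha rose and Tpi1, Pgk1, Eno1 and Pkm fell, while Gpi1, Aldoa, Gapdh, Eno2 and Ldhb did not pass the false discovery rate (FDR) of 0.05. Thus 5 of 10 were called, where 31.2% of the 13004 genes tested were called. Fewer of the 10 were called with RLE size factors in place of TMM. The share of all genes under RLE is not given here, so this does not set the 10 apart from other genes. The median log2 fold change of the 10 was -0.26, and that of all genes tested was -0.04.

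Ldha, the subunit that predominates in tissues that form lactate, had 231, 208 and 327 CPM per kb in the 3 resting PSD95-TurboID pulldowns (replicates 1, 2 and 3 throughout). It had 169, 142 and 127 CPM per kb in the resting PSD95-TurboID inputs and 144, 106 and 119 in the Pan-TurboID inputs. Every pulldown lay above every input. The log2 fold change was 0.96 ± 0.20 (SE), or 1.94-fold, with an FDR of 0.00157 by edgeR's quasi-likelihood test.

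Pgk1 had 278, 303 and 216 CPM per kb in the pulldowns. It had 464, 452 and 434 CPM per kb in the PSD95-TurboID inputs and 379, 421 and 409 in the Pan-TurboID inputs. The pulldowns lay below all 6 inputs, and the log2 fold change was -0.65 ± 0.19 (edgeR FDR 0.0115). Tpi1 had 283, 297 and 263 CPM per kb in the pulldowns, against 517, 428 and 429 and 467, 391 and 342 CPM per kb in the same inputs. Its groups did not overlap either, with a log2 fold change of -0.58 ± 0.22 (edgeR FDR 0.0438).

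Eno1 fell as well, from 129 to 139 CPM per kb over the 6 inputs to 95.1, 82.6 and 86.1 in the pulldowns. The log2 fold change was -0.59 ± 0.20 (edgeR FDR 0.0252). Eno1b, which shares most of its windows, had 0.13 ± 0.15 (edgeR FDR 0.526), so the fall held for counts placed at the Eno1 locus. Pkm had 417, 405 and 423 CPM per kb in the pulldowns, below the lowest of 6 inputs at 455, and its log2 fold change was -0.39 ± 0.15 (edgeR FDR 0.0431). With each gene's transcript of highest count the call of Pkm was lost (-0.32, edgeR FDR 0.0915). The neuronal enolase Eno2, the gene without copies, had 293, 265 and 284 CPM per kb in the pulldowns and 275 to 337 in the inputs. These overlapped, and the log2 fold change of -0.14 ± 0.13 did not pass (edgeR FDR 0.46). Aldoa, Ldhb and Gpi1 had log2 fold changes of 0.07, 0.03 and 0.31, and Gapdh, with the fewest counts, -0.60 ± 0.34 (edgeR FDR 0.178). With the replicate number as a block, Gpi1 passed as well (log2 fold change 0.31, edgeR FDR 0.0255), where 42.9% of all genes did. Without the libraries numbered 1, 2 or 3, there were 3, 2 and 0 calls among the 10 (27.7%, 18.1% and 0.121% of all genes), and Pkm and Tpi1 were lost each time. Without those numbered 3, Ldha had a log2 fold change of 0.69 (edgeR FDR 0.0934) and Pgk1 of -0.53 (edgeR FDR 0.239).

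After KCl, the same comparison called Pgk1 and Pkm, which fell, 2 of 10 where 18% of all genes tested were called. Pgk1 had 154, 361 and 220 CPM per kb in the depolarized PSD95-TurboID pulldowns and 338, 453 and 377 in their inputs. Pulldown 2 lay within the range of the inputs, and the log2 fold change against both inputs was -0.69 ± 0.19 (edgeR FDR 0.0153). Pkm had a log2 fold change of -0.44 ± 0.15 (edgeR FDR 0.0374). Ldha, at 204, 181 and 205 CPM per kb in these pulldowns, 130, 157 and 127 in their inputs and 189, 153 and 93.8 in the depolarized Pan-TurboID inputs, had a log2 fold change of 0.49 ± 0.20 that did not pass (edgeR FDR 0.0862). With the replicate block 5 of 10 passed, where 33.1% of all genes did: Ldha rose (0.52, edgeR FDR 0.0132) and Eno1 (-0.54, edgeR FDR 0.00275) and Tpi1 (-0.47, edgeR FDR 0.022) fell, besides Pgk1 and Pkm. Without the libraries numbered 1 or 3 none passed (8.73% and 0.129% of all genes), and without those numbered 2 Pgk1 alone did (22.7%). The change of enrichment with KCl, depolarized minus resting, was called for none of the 10 and for 0% of all genes by edgeR. An unadjusted p below 0.05 was reached by 342 genes (2.63%), a smaller share than that p gives where no gene differs. For Ldha the change of enrichment was -0.47 ± 0.29 on the log2 scale.

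Pan-TurboID, the ligase without a dendritic signal, gave the measure of the pulldown itself, taken over rest and KCl together. Ldha rose (log2 fold change 0.68 ± 0.17, edgeR FDR 0.00334) and Pgk1 (-0.54 ± 0.15, edgeR FDR 0.00744), Tpi1 (-0.48 ± 0.17, edgeR FDR 0.0337) and Pkm (-0.31 ± 0.12, edgeR FDR 0.0387, and 0.1 with the transcript of highest count) fell. These were 4 of 10 genes, against 34.2% of all genes tested. Eno1 had a log2 fold change of -0.39 ± 0.16 (edgeR FDR 0.0563), which passed with the replicate block (-0.38, edgeR FDR 0.00478, with 44.9% of all genes called). At rest, the Pan-TurboID pulldowns held 231, 177 and 237 CPM per kb of Ldha, all above the inputs, and 252, 280 and 288 CPM per kb of Pgk1, all below them. Leaving out the libraries numbered 1, 2 or 3 gave 3, 2 and 0 calls among the 10 (28.8%, 18.8% and 9.68% of all genes). Without those numbered 3, Ldha had a log2 fold change of 0.56 (edgeR FDR 0.0632).

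The difference between the baits, PSD95-TurboID pulldown over input minus Pan-TurboID pulldown over input, was called for none of the 10 genes (edgeR FDR 1 for each), and for 0.00769% of all genes, which is 1 gene. An unadjusted p below 0.05 was reached by 169 genes, or 1.3%, a smaller share than that p gives where no gene differs. The test left out the pairing of inputs with pulldowns (r 0.349 to 0.711) and was cautious here. That none of the 10 was called thus does not show that the baits were alike. The log2 differences of the members ran from -0.64 ± 0.38 for Gapdh to 0.12 ± 0.19 for Aldoa, with 0.02 ± 0.24 for Ldha and -0.14 ± 0.21 for Pgk1. These comparisons share inputs and pulldowns and are not independent of each other.

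In DHPG-treated neurons, where the 3 replicates lay close together, 9 of 10 genes were called between pulldown and input. Here 79.7% of the 12258 genes tested were called, so a call by itself set these genes little apart. Their log2 fold changes had a median of -0.65, against 0.05 over all genes tested. Neuron markers also summed lower in DHPG pulldowns, at 9224 to 9655 CPM, than in DHPG inputs, at 11244 to 11361 CPM. Astrocyte markers overlapped, at 360 to 375 and 358 to 379 CPM. These sums are scaled to CDS totals without TMM and cannot be set against the fold changes above. Of all genes tested 40.5% were called higher and 39.3% lower, so a call as lower was not particular to the 10 genes.

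Pgk1 had 407, 399 and 427 CPM per kb in DHPG inputs and 131, 141 and 143 in the pulldowns. It fell the most of the 10, by 2.57-fold (log2 fold change -1.36 ± 0.06, edgeR FDR 7.9e-13). Eno1 had 152, 167 and 146 CPM per kb in inputs and 53.7, 68.8 and 64.2 in pulldowns (log2 fold change -1.10 ± 0.08). Tpi1 had 432, 430 and 456 CPM per kb in inputs and 170, 190 and 217 in pulldowns (-0.98 ± 0.07). The pulldowns of all 3 genes lay far below their inputs.

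Eno2 fell in this experiment, from 308, 295 and 314 CPM per kb in inputs to 137, 146 and 150 in pulldowns. Its log2 fold change was -0.87 ± 0.06 (edgeR FDR 1.96e-10), and with no copy of its windows elsewhere it could be assigned to its own locus. Gapdh (-0.75 ± 0.12) and Pkm (-0.55 ± 0.06) fell as well, Pkm from 488, 479 and 489 CPM per kb to 269, 295 and 296. Ldha rose from 236, 240 and 242 CPM per kb to 378, 384 and 384, or 1.85-fold (log2 fold change 0.89 ± 0.06, edgeR FDR 6.57e-11).

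Gpi1 (0.29 ± 0.05, edgeR FDR 8.67e-05) and Aldoa (0.13 ± 0.06, edgeR FDR 0.0405) were called higher under TMM scaling, and Ldhb had a log2 fold change of 0.03 (edgeR FDR 0.677). These 3 depended on the scaling. With CDS totals alone as library sizes, the median of all genes moved from 0.05 to -0.16, Aldoa stood at -0.08 (edgeR FDR 0.18), Ldhb fell by 0.18 on the log2 scale (edgeR FDR 0.0195) and Gpi1 was no longer called (0.08, edgeR FDR 0.197). Set against the median of all genes, Aldoa and Gpi1 stayed above it and Ldhb just below it under both scalings. The replicate block (edgeR FDR 0.0749) and each replicate left out (edgeR FDR 0.121 to 0.364) ended the call of Aldoa, while the other 8 calls held without any 1 replicate.

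With siRNA against eIF4G2, 9 of 10 genes were called between pulldown and input over rest and KCl together, against 59.7% of the 12224 genes tested. The 8 that fell were Pgk1, Gapdh, Tpi1, Eno1, Eno2, Pkm, Aldoa and Ldhb, and Ldha rose. Of all genes tested 30.6% were called lower and 29.1% higher. Pgk1 had 352 and 368 CPM per kb in resting knockdown inputs and 138 and 144 in the pulldowns, with 366 and 356 against 152 and 141 after KCl. The inputs and pulldowns were far apart in both states, and the log2 fold change was -1.22 ± 0.07 (edgeR FDR 1.33e-13).

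Ldha had 197 and 180 CPM per kb in resting inputs, 240 and 209 in resting pulldowns, 167 and 130 in depolarized inputs and 255 and 276 in depolarized pulldowns. The pulldowns were above the inputs in each state, with a log2 fold change of 0.65 ± 0.09 (edgeR FDR 3.16e-07). Eno2 had 215 and 220 CPM per kb in resting inputs and 127 and 113 in the pulldowns (-0.63 ± 0.08, edgeR FDR 2.54e-07). Gapdh, Tpi1, Eno1 and Pkm had log2 fold changes of -1.13, -0.90, -0.855 and -0.53, and Aldoa and Ldhb of -0.37 and -0.30. Gpi1, at 0.09 ± 0.07, did not pass (edgeR FDR 0.304). The median of the 10 was -0.58 and that of all genes -0.01. With CDS totals alone the median of all genes moved to -0.11.

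**Figure D2:**
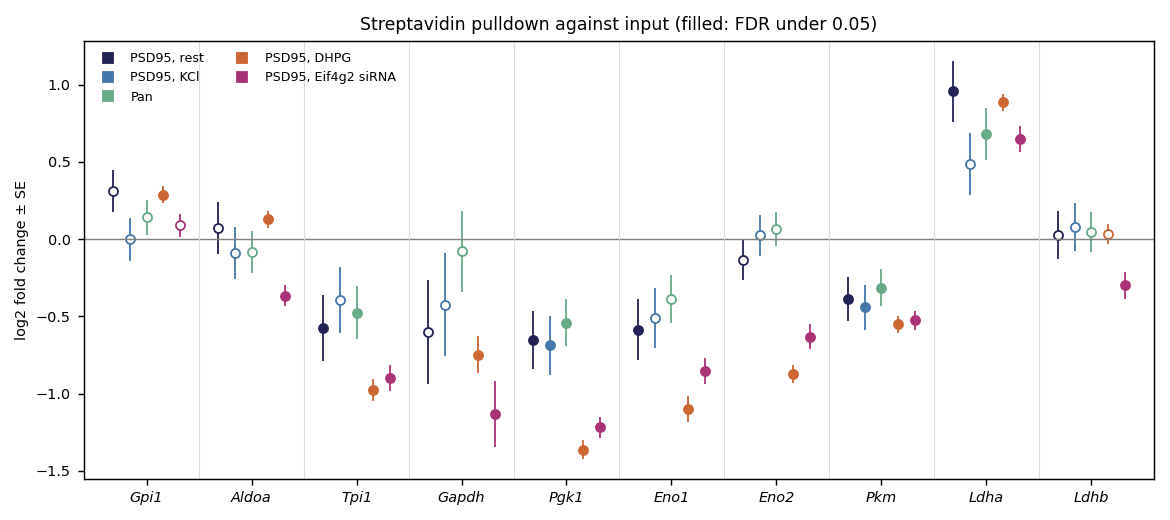
Log2 fold change ± SE of pulldown over input for the 10 genes, in pathway order, in 5 comparisons, with filled points for an edgeR FDR under 0.05 and open points otherwise. Ldha lay above 0 and Pgk1, Tpi1, Eno1 and Pkm below 0 in all 5 comparisons, and the difference of Pgk1 reached -1.36 with DHPG.

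Along the CDS, the pulldowns also differed from the inputs by position. For each gene whole coding exons went to the 5′ part if their own midpoint lay before the middle of the CDS, and otherwise to the 3′ part. The parts can thus differ in length. The log2 ratio of counts in the 3′ part over the 5′ part was compared by limma. This measure was chosen after the exon counts had been seen. In resting PSD95-TurboID pulldowns, 7 of 10 genes had shifted toward the 3′ part relative to inputs, where 43.4% of the 8524 genes tested had. The median shift over all genes was 0.85, so that the tilt was not particular to these enzymes.

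Ldha, for instance, had log2 ratios of 1.32, 0.86 and 0.61 in the resting Pan-TurboID inputs and 0.97, 0.40 and 0.95 in the PSD95-TurboID inputs. In the PSD95-TurboID pulldowns the ratios were 2.68, 2.17 and 2.98. Each pulldown was above each input, and the shift was 1.76 ± 0.42 (limma FDR 0.00238). Ldhb (1.82, limma FDR 0.000748), Aldoa (1.73), Eno1 (1.41), Gpi1 (1.28), Tpi1 (1.19) and Eno2 (0.90, limma FDR 0.0393) shifted as well. Gapdh (0.82), Pkm (0.60) and Pgk1 (0.50) did not pass, and Pkm and Pgk1 did with the replicate block, where 52.4% of all genes had shifted this way. Leaving out those numbered 1, 2 or 3 gave 7, 5 and 0 calls among the 10 (38.6%, 31% and 0.0233% of all genes).

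The shift was called for 8 of 10 genes after KCl (40.5% of all genes) and for 9 of 10 with Pan-TurboID (52.4% of all genes). Without the libraries numbered 1, 2 or 3 the calls after KCl were 4, 8 and 0 of 10 (28.6%, 42.9% and 0.0233% of all genes), and those with Pan-TurboID 8, 6 and 5 (47.1%, 38.6% and 18.2%). With the replicate block the shift passed for 9 of 10 after KCl, with Eno1 added (0.81, limma FDR 0.00999), against 50.4% of all genes, and for all 10 with Pan-TurboID, with Gapdh added (limma FDR 0.0134), against 60.2%. Between the baits it differed for none of the 10 and for 0% of all genes by limma, and none of the 10 had an unadjusted p below 0.05, where 2.05% of all genes had. KCl against rest in inputs called none of the 10 by limma (5.2% of all genes), although 5 had an unadjusted p below 0.05, where 20.9% of all genes had. All genes leaned the same way there, with a median shift of -0.28 and 433 of 443 calls toward the 5′ part. With the replicate block Gapdh (-1.10), Gpi1 (-0.90), Aldoa (-0.80) and Pkm (-0.63) shifted toward the 5′ part, 4 of 10 where 12.8% of all genes did. The numbers did not pair rest with KCl, and the block left the spread between replicate numbers out of the error. These calls are therefore not firm. Without the block and the libraries numbered 1, Aldoa, Pkm, Ldha, Ldhb and Gpi1 shifted toward the 5′ part, 5 of 10 where 10.1% of all genes did. With DHPG all 10 shifted toward the 3′ part, against 75.6% of all genes, and with siRNA against eIF4G2 all 10, against 64.6% of all genes.

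In the DHPG experiment the ratios of Ldha went from 0.70, 0.73 and 0.62 in inputs to 3.62, 3.63 and 3.90 in pulldowns. That was an 8.19-fold change of the ratio (log2 shift 3.03 ± 0.09, limma FDR 1.25e-17), the largest of the 10 genes. Aldoa went from -0.65, -0.57 and -0.56, with more counts in the 5′ part, to 2.04, 1.87 and 1.85 (shift 2.51 ± 0.07, limma FDR 7.79e-18). Pgk1 (0.83), Pkm (0.84) and Eno2 (1.07) shifted less than the median of all genes, 1.09.

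By exon, the higher level of Ldha in pulldowns lay in the 3′ part of its CDS (chr7:46847326-46855141, plus strand, 8 coding exons). In resting PSD95-TurboID pulldowns, coding exon 2 of Ldha had 23.7 ± 8.82 CPM per kb (SD, n = 3), against 63.9 ± 12.5 in inputs (n = 6). Exon 4 had 144 against 143 CPM per kb. Exon 8, the last, had 727 ± 294 CPM per kb, 543 to 1066 by library, against 201 ± 30.6, 158 to 234 by library. On the log2 scale the difference thus ran from -1.39 on exon 2 to 1.85 on exon 8. The low end is uncertain, because no 28-nt window of exons 2 and 3 is unique in the genome (0%), so that their counts, which are also in the 5′ part of the ratio given above, cannot be assigned to this locus. Of the windows of exon 4, 57.5% were unique, and of exon 8, 45.7%. Exon 1, at 98.4%, had 0 CPM per kb in pulldowns and 2.37 in inputs. With DHPG the last exon had 1306 ± 66.7 CPM per kb in pulldowns and 399 ± 31 in inputs, while exon 2 had 26.8 ± 4.88 and 117 ± 8.82.

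The first coding exon was also lower in the pulldowns at rest for other members. Of the 7 members with at least 100 CPM per kb on it in inputs, 6 (Gpi1, Tpi1, Eno1, Eno2, Pkm and Ldhb) had all 3 pulldowns below all inputs, while Pgk1 overlapped, at 169 ± 91 and 249 ± 32.5 CPM per kb. First exons of all genes were not counted by this rule. With a median shift of 0.85 toward the 3′ part over all genes, the count does not set the members apart. The first exons of Aldoa (2.31 and 1.11 CPM per kb), Ldha and Gapdh held too few counts to compare. Ldhb exon 1 had 109 ± 8.63 CPM per kb in pulldowns and 440 ± 45.6 in inputs, and its exon 7, the last, 706 ± 91.8 and 411 ± 76.3. Pkm exon 1 had 419 ± 199 and 1276 ± 223 CPM per kb, but its last exon was close to the inputs, at 150 and 121. Tpi1 exon 1 had 259 ± 85.2 and 595 ± 61.1 CPM per kb, and its last exon 334 ± 27.3 and 215 ± 25.4. Of the windows of these last exons 58.2% were unique for Ldhb, 2.5% for Pkm and 1.09% for Tpi1.

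Eno2, whose windows have no copies, showed the same order at rest, with 139 ± 41.4 CPM per kb in pulldowns and 276 ± 39.9 in inputs on exon 1, and 381 ± 54.4 and 182 ± 55 on exon 9. For Eno2 a depletion at the 5′ end and an excess near the 3′ end thus made up a total that did not pass the test. With DHPG all 11 exons of Eno2, all 11 of Pgk1 and all 10 of Pkm were lower in pulldowns than in inputs. For Eno2 the exons ran from -1.99 to -0.20 on the log2 scale. Whether the reduction of whole genes and the tilt toward the 3′ end have a common origin was not tested.

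**Figure D3:**
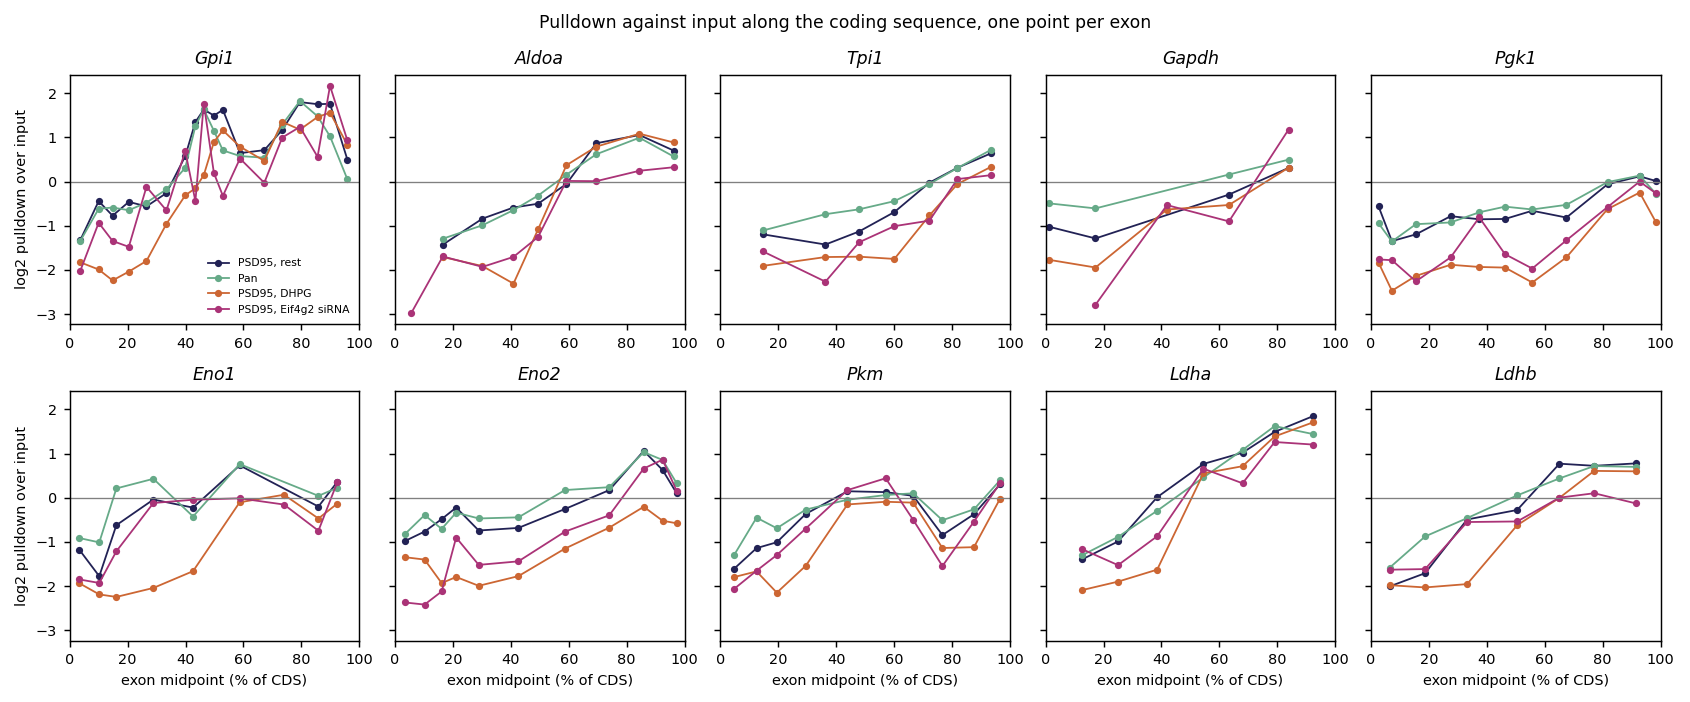
Log2 pulldown over input for each coding exon with at least 5 CPM per kb in inputs, against the position of the exon's midpoint in percent of CDS length, for 4 sets of libraries (PSD95-TurboID at rest, Pan-TurboID over rest and KCl, PSD95-TurboID with DHPG and with siRNA against eIF4G2). Ldha ran from -1.39 at exon 2, which has no unique windows, to 1.85 at exon 8 at rest, and with DHPG the exons of Pgk1 lay below 0 from end to end.

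Counts in the 5′ UTR relative to the CDS were lower in pulldowns for nearly all genes, the members among them. Summed over the 19 inputs and the 19 pulldowns, 96.4% of 10393 genes with at least 1000 counts in the CDS and 20 in the 5′ UTR had a lower ratio in pulldowns, with medians of 24.1 and 9.31 counts in the 5′ UTR per 100 in the CDS. The 9 members with 5′ UTR counts were lower as well, so this was not particular to them, and no test was run. Because 5′ ends of footprints were counted with no offset, ribosomes on the first codons fall into the 5′ UTR. Ldhb, with the highest ratio, had 49.9 to 117 counts in the 5′ UTR per 100 in the CDS in the 12 inputs of the KCl experiment and 8.91 to 39.8 in the pulldowns, which did not overlap. With DHPG it had 41.1 to 54 in inputs and 11.5 to 14.1 in pulldowns. Over all libraries Gpi1 had 27.1 and 9.14, Aldoa 14.5 and 4.9, Pkm 17.4 and 8.07, and Eno2 12.2 and 6.67 per 100 in inputs and pulldowns. Pgk1 (18.2 and 16.5) and Gapdh (18.9 and 15.3) differed little, and their libraries overlapped in the KCl experiment, at 8.16 to 30 and 5.04 to 26.8 for Pgk1. In the knockdown experiment 7 of the 9 were lower in pulldowns, against 89% of all genes, and Pgk1 and Gapdh were not. Ldha had few counts in the 5′ UTR, at 0.389 and 0.15 per 100. In the 3′ UTRs the density was at most 1.37% of that in the CDS.

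KCl for 1 h called none of the 10 genes in inputs by edgeR, where 15.4% of all genes tested were called and 28.9% had an unadjusted p below 0.05. Eno1 came closest to the threshold and was the only one of the 10 with an unadjusted p below 0.05. It had 139, 129 and 130 CPM per kb in resting Pan-TurboID inputs and 139, 136 and 134 in resting PSD95-TurboID inputs. After KCl it had 114, 167 and 231 CPM per kb and 157, 182 and 211 CPM per kb. The KCl inputs were above the resting ones in 5 of 6 libraries, and spread widely. The log2 fold change was 0.42 ± 0.16 (edgeR FDR 0.0665), and 0.40 with an edgeR FDR of 0.0055 with the replicate block, where 26.9% of all genes were called. The block was set within each condition, and same numbers did not pair rest with KCl (median r 0). It therefore left the spread between replicate numbers out of the error, and a call of KCl against rest under it is not firm. Same-numbered libraries of the 2 baits deviated together (r 0.127 to 0.629), so the 6 inputs of a state are not independent of each other. With the libraries numbered 1 left out Eno1 (0.55, edgeR FDR 0.0112) and Tpi1 (0.46, edgeR FDR 0.0339) were called, 2 of 10 where 16.2% of all genes were. Eno1b had a log2 fold change of -0.01 (edgeR FDR 0.981).

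Tpi1 had 419, 452 and 556 CPM per kb in Pan-TurboID inputs and 466, 644 and 581 in PSD95-TurboID inputs after KCl. These overlapped the resting inputs, and the log2 fold change was 0.31 ± 0.17 (edgeR FDR 0.246). Eno2 had a log2 fold change of -0.18 ± 0.11 (edgeR FDR 0.277), and the other 7 genes lay between -0.16 and 0.12. In PSD95-TurboID pulldowns KCl called none of the 10 by edgeR either, against 6.6% of all genes, with 21.7% at an unadjusted p below 0.05. Eno1, with 72.3, 152 and 142 CPM per kb after KCl, had a log2 fold change of 0.50 ± 0.22 (edgeR FDR 0.185), and 0.45 with an edgeR FDR of 0.0418 under the block, where 16.5% of all genes were called, although the numbers did not pair rest with KCl. Here too the block left the spread between replicate numbers out of the error. With the libraries numbered 1 left out Eno1 (0.76, edgeR FDR 0.0202) and Tpi1 (0.77, edgeR FDR 0.02) were called, 2 of 10 where 11.2% of all genes were.

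With siRNA against eIF4G2, KCl raised Tpi1 and Eno1 in inputs, 2 of 10 genes where 19.3% of all genes were called. Tpi1 rose from 297 and 271 to 374 and 365 CPM per kb (log2 fold change 0.40 ± 0.12, edgeR FDR 0.0155). Eno1 rose from 166 and 177 to 226 and 198 CPM per kb (0.32 ± 0.11, edgeR FDR 0.0491). The groups of both genes did not overlap. The call of Eno1 was lost with CDS totals alone (edgeR FDR 0.0589) and under the replicate block (edgeR FDR 0.0574), under which Ldha fell instead (-0.33, edgeR FDR 0.0492). Leaving out any 1 of the 4 inputs ended the calls of both Tpi1 (edgeR FDR 0.0666 to 0.233) and Eno1 (edgeR FDR 0.0723 to 0.395).

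In knockdown pulldowns KCl raised Eno1 and Pkm, 2 of 10 where 22.2% of all genes were called. Eno1 rose from 72.1 and 86.7 to 119 and 126 CPM per kb (log2 fold change 0.64 ± 0.13, edgeR FDR 0.000533). Pkm rose from 286 and 263 to 364 and 326 CPM per kb (0.33 ± 0.09, edgeR FDR 0.00747). Neither gene overlapped between rest and KCl. The call of Pkm was lost without resting pulldown 2 (edgeR FDR 0.071) or depolarized pulldown 1 (edgeR FDR 0.0916). The effect of KCl in inputs with against without knockdown was called for none of the 10, and for 0.00759% of all genes by edgeR. An unadjusted p below 0.05 was reached by 368 genes (2.79%), a smaller share than that p gives where no gene differs. For Eno1 the difference of the KCl effect was -0.12 ± 0.31 and for Tpi1 0.09 ± 0.37.

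**Figure D4:**
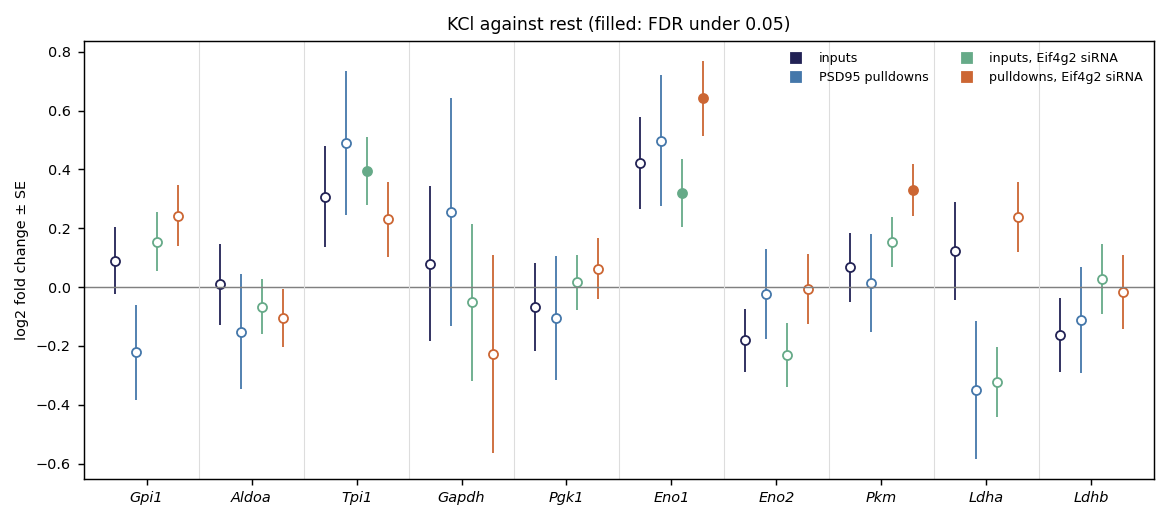
Log2 fold change ± SE of KCl over rest for the 10 genes in inputs, PSD95-TurboID pulldowns, knockdown inputs and knockdown pulldowns, with filled points for an edgeR FDR under 0.05. Eno1 and Tpi1 lay above 0 in all 4 sets, from 0.32 to 0.64 for Eno1 and from 0.23 to 0.49 for Tpi1, and without a replicate block the filled points of both were in knockdown libraries.

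Inputs also differed between experiments, where treatment and experiment cannot be told apart. Between DHPG inputs and resting PSD95-TurboID inputs, Ldha and Aldoa were higher and Ldhb lower with DHPG, 3 of 10 genes where 32.8% of all genes were called. Ldha had 236, 240 and 242 CPM per kb with DHPG and 169, 142 and 127 at rest, with no overlap (log2 fold change 0.81 ± 0.14, edgeR FDR 0.000312). Ldhb had 182, 179 and 182 CPM per kb with DHPG and 227, 252 and 264 at rest (-0.35 ± 0.11, edgeR FDR 0.0201). Aldoa had 690, 657 and 630 CPM per kb with DHPG and 569, 599 and 524 at rest (0.33 ± 0.12, edgeR FDR 0.0451). With CDS totals alone the median of all genes moved from -0.02 to -0.13, Aldoa was no longer called (0.22, edgeR FDR 0.138) and Pkm was called lower (-0.22, edgeR FDR 0.045). The call of Aldoa was lost without any 1 replicate number and that of Ldhb without 2 (edgeR FDR 0.169) or 3 (edgeR FDR 0.106), whereas Ldha kept its call each time. With the replicate number as a block Eno1 passed as well (0.29, edgeR FDR 0.0195, against 0.0507 without it), where 42.2% of all genes did. The numbers did not pair these libraries, and the block left the spread between replicate numbers out of the error. This call of Eno1 is therefore not firm.

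Markers of several cell types moved with this comparison. Of all genes tested in it, 16.3% were called higher and 16.5% lower. Neuron markers summed to 11244 to 11361 CPM in DHPG inputs and 9601 to 10472 in resting inputs of the KCl experiment, with no overlap, and 3 of 10 were higher. Astrocyte markers summed to 358 to 379 CPM in DHPG inputs and 748 to 1424 in resting inputs of the KCl experiment, with 7 of 9 tested lower. Oligodendrocyte lineage markers summed to 44.5 to 47.9 and 244 to 608 CPM, with 5 of 7 tested lower, and microglia markers to 2.59 to 4.04 and 1.3 to 3.82 CPM. S100b, on the astrocyte list, was at 0 in DHPG inputs and had counts in both resting input groups. It was also at 0 in every pulldown group, with and without DHPG, so its 0 is not particular to DHPG. Mog, of oligodendrocytes, was at 0 in DHPG inputs and in both resting input groups. The part of these cells in the differences of Ldha, Ldhb and Aldoa was not tested.

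Between knockdown inputs and PSD95-TurboID inputs without knockdown, over rest and KCl, Eno2 and Tpi1 were lower, 2 of 10 genes where 15.9% of all genes were called. Eno2 had 215 and 220 CPM per kb at rest and 187 and 180 after KCl with knockdown. Without knockdown it had 318, 322 and 337 at rest and 264, 321 and 246 after KCl. Every knockdown input was below every other input, with a log2 fold change of -0.56 ± 0.12 (edgeR FDR 0.00263). For Tpi1 the log2 fold change was -0.62 ± 0.19 (edgeR FDR 0.0258). Leaving out the libraries numbered 1 or 2 ended both calls (edgeR FDR 0.0795 and 0.199 for Eno2, with 6.64% and 2.12% of all genes called), and leaving out those numbered 3 ended that of Tpi1 (edgeR FDR 0.103). With the replicate number as a block 5 of 10 passed, where 28.5% of all genes did. Under the block Eno1 was higher (0.30, edgeR FDR 0.0404) and Ldhb (-0.38, edgeR FDR 0.00573) and Gpi1 (-0.29, edgeR FDR 0.0247) lower as well. The numbers did not pair these libraries, and the block left the spread between replicate numbers out of the error. These further calls are therefore not firm. Marker lists moved with this comparison. Of all genes tested in it, 8% were called higher and 7.89% lower. Microglia markers summed to 13.1 to 25.7 CPM in knockdown inputs and 1.28 to 5.74 CPM in the inputs without knockdown, with no overlap, and 3 of 4 tested were higher. Tmem119 was at 0 in resting and P2ry12 in depolarized knockdown inputs. Astrocyte markers summed to 853 to 1068 and 748 to 1424 CPM and oligodendrocyte lineage markers to 176 to 192 and 162 to 608 CPM, with 1 higher and 1 lower in each list. Neuron markers summed to 8053 to 10222 and 8225 to 10472 CPM, and 5 of 10 were lower and 1 higher. The part of these cells in the values of Eno2 and Tpi1 was not tested.

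The paralog pairs changed their ratio across the groups. Per length, Eno2 had 2.33 ± 0.14 (SD, n = 6) times the footprints assigned to Eno1 in resting inputs of the KCl experiment. The ratio was 3.19 ± 0.11 (n = 3) in resting PSD95-TurboID pulldowns and 1.54 ± 0.32 in their inputs after KCl. With knockdown it was 1.27 ± 0.04 (n = 2) in resting inputs and 0.867 ± 0.056 after KCl, where the counts at the Eno1 locus exceeded those of Eno2. The order depended on Eno1b. With the counts of Eno1b added to those of Eno1, the ratio of Eno2 was 0.589 ± 0.0513 in the same resting inputs, and 0.19 to 0.655 over all 38 libraries, so that Eno2 was lower throughout. Resting PSD95-TurboID pulldowns were then at 0.543 ± 0.0418 against 0.609 ± 0.0689 in their own inputs, which overlapped, and no longer above them. Which locus the shared footprints came from cannot be told apart.

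Ldhb had 1.86 ± 0.31 (n = 6) times the footprints of Ldha per length in resting inputs of the KCl experiment, 1.34 to 2.14 by library. In resting pulldowns the ratio was 0.983 ± 0.152 with PSD95-TurboID and 1.07 ± 0.23 with Pan-TurboID. It was 0.756 ± 0.0126 in DHPG inputs and 0.418 ± 0.0241 in DHPG pulldowns, so Ldha was the more footprinted subunit there. In knockdown libraries at rest it was 0.947 in inputs and 0.603 in pulldowns. In depolarized knockdown inputs it was 1.23. Copies elsewhere limit this ratio as well, with 64.2% of the windows of Ldha and 58.1% of those of Ldhb. Exon 1 of Ldha, with 63 nt and 2.37 CPM per kb in resting inputs, also counts in its length. The ratio is therefore uncertain as a ratio of the subunits.

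Pkm is spliced into 2 forms that differ by 1 exon, M1, the form of neurons and muscle, and M2, the form of embryonic and dividing cells. The 2 exons have the same length, 167 nt, and lie side by side on the plus strand of chromosome 9. They share 103 of 167 positions (61.7%). Of the 28-nt windows of exon 10, 29.9% were unique in the genome, and the others also lie in copies of Pkm. The count of exon 10 is therefore uncertain, and with it the share of exon 9. Exon 9 is not in the longest transcript, whose windows were searched, so no such figure is given for it. From each exon the same 30 positions are shown, read from the mm10 sequence, with capitals at the 20 positions where the exons differ. They are given because the isoform share below rests on telling these letters apart.
Pkm exon 9 (M1), chr9:59675072-59675101: tTgaAgaGctTGTGcgAGCCTcCAGTCACT
Pkm exon 10 (M2), chr9:59675611-59675640: tCgaGgaActCCGCcgCCTGGcGCCCATTA

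The share of exon 9 among counts on both exons was high in all libraries. In resting PSD95-TurboID inputs it was 87.0%, 90.1% and 92.2%, and in the pulldowns 86.7%, 93.4% and 97.5%. These overlapped. Over the KCl experiment the share was 89.7% ± 3.57 (SD, n = 12) in inputs and 92.7% ± 3.73 (n = 12) in pulldowns, a difference of 3.01 percentage points (2-sided permutation test, p = 0.0576). Permuted within replicate numbers, the p was 0.021, and without the libraries numbered 1 the difference was 3.83 points (permutation p = 0.0455). It was 2.87 points without those numbered 2 (permutation p = 0.219), 2.32 without those numbered 3 (permutation p = 0.165) and 3.19 in PSD95-TurboID libraries alone (exact permutation p = 0.149). Between KCl and rest in inputs it differed by -0.354 points (exact permutation test, 2-sided, n = 6 per group, p = 0.87), with -3.22 to 3.42 points when 1 replicate number was left out. The longest transcript of Pkm, on which the levels above rest, holds exon 10, so footprints on exon 9 are not part of those levels.

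By fraction, the shares of the experiments overlapped in part. Libraries of the KCl experiment ran from 82.3% to 95.1% in inputs and from 86.3% to 98.1% in pulldowns. DHPG inputs had 96.8%, 97.3% and 97.6%, above all inputs of the KCl experiment, and DHPG pulldowns 97.9%, 97.3% and 97.1%, within the range of its pulldowns. Knockdown inputs had 84.2% and 85.1% at rest and 80.0% (95% Wilson interval 76.6 to 83.0) and 75.3% (70.7 to 79.4) after KCl. Knockdown pulldowns had 90.2% and 85.4% at rest and 84.3% and 85.5% after KCl. The depolarized knockdown inputs lay below all other libraries, and the resting ones within the range of the inputs of the KCl experiment. Of the 4 knockdown pulldowns 3 lay below every pulldown of the KCl experiment, and DHPG and knockdown libraries did not overlap. These intervals cover counting error only, and the experiments were not tested against each other for this share.

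**Figure D5:**
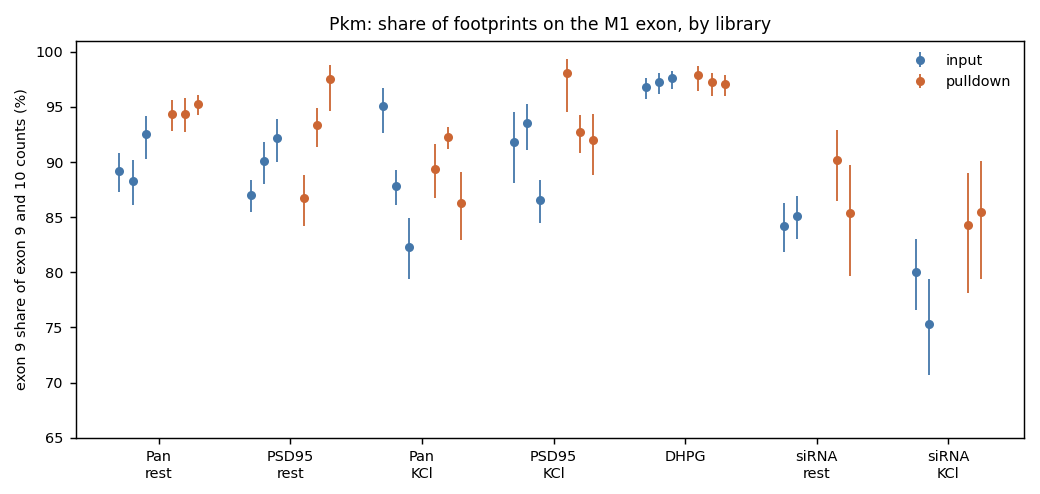
Share of exon 9 (M1) among footprints on Pkm exons 9 and 10 in each library, in percent with 95% Wilson intervals, on an axis that starts at 65%. DHPG inputs lay between 96.8% and 97.6%, above every input of the KCl experiment, at most 95.1%, and knockdown inputs after KCl lay lowest, at 80.0% and 75.3%.

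Other genes of glucose use gave the setting for these 10. Among 27 further glycolysis genes, 19 were tested in the KCl experiment. At rest 14.7% of all genes were called higher and 16.4% lower in PSD95-TurboID pulldowns over inputs. In resting PSD95-TurboID pulldowns over inputs, where 31.2% of all genes were called, 5 rose and none fell: Pfkp (log2 fold change 1.19, edgeR FDR 0.000866), Pfkl (0.76, edgeR FDR 0.00523) and Pfkm (0.60, edgeR FDR 0.0178), which encode phosphofructokinase, Hk1 (0.74, edgeR FDR 0.0046), the hexokinase of brain, and Pfkfb2 (0.77, edgeR FDR 0.0129), which makes an activator of phosphofructokinase. The median of the 19 was 0.51, against -0.26 for the 10 enzymes and -0.04 for all genes. Hk1, Pfkp, Pfkl and Pfkm have CDSs of 2343 to 2757 nt, longer than those of the 10, at 900 to 1677 nt. These values were not adjusted for CDS length, and the part of length in the difference was not tested. Without the libraries numbered 1 or 2 there were 5 and 6 calls, all higher, and without those numbered 3 none, with 0.077 as the lowest edgeR FDR. With DHPG 12 of 17 tested rose and 2 fell, where 79.7% of all genes were called, 40.5% higher and 39.3% lower. The median of the 17 was 0.56. Pfkp was at 1.61, and Eno1b, at -0.35, and Pgam1, at -0.21, fell.

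In inputs, where 15.4% of all genes were called (6.33% higher), KCl raised 1 of these 19 genes, Pgam1, phosphoglycerate mutase (0.64, edgeR FDR 0.000564). With knockdown it raised Pgam1 (0.49) and Aldoc (0.62) in inputs and lowered Hk1 (-0.24), 3 of 14 tested where 19.3% of all genes were called, and with any 1 of the 4 inputs left out there were 1 or 2 calls. Among 20 genes for glucose, lactate and pyruvate transport and pyruvate entry into mitochondria, 19 were tested, and 8 rose and 3 fell in resting PSD95-TurboID pulldowns, against 31.2% of all genes. The glucose transporters Slc2a1 (1.25, edgeR FDR 0.000343) and Slc2a3 (1.19, edgeR FDR 0.000908) rose, and Bsg, a partner of lactate transporters, fell (-0.98, edgeR FDR 0.00186). Of 16 genes of the tricarboxylic acid cycle 3 rose and 1 fell in that comparison, and KCl raised 6 in inputs (15.4% of all genes), Sdhc (0.64) and Idh3g (0.56) among them, with a median of 0.36. Of 7 genes of the pentose phosphate pathway 1 rose and 1 fell, Rpe (-1.48, edgeR FDR 0.0151), and KCl called none in inputs. Of all these lists no gene was called in the resting comparison or for KCl in inputs without the libraries numbered 3, where 0.121% and 3.92% of all genes were, and the lowest edgeR FDRs were 0.0572 and 0.0779.

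The genes most like the 10 in pattern were taken as those whose log2 CPM over the 14 group means correlated best with the members' mean. Of 7895 candidates, those with the highest correlation included Rangap1 (Pearson r 0.98), Tspyl4 (0.96), Lmo3 (0.96) and Cdkn2d (0.96). Set against the mean of the other 9, Tpi1 (0.93), Gapdh (0.92), Pgk1 (0.90), Pkm (0.90), Eno2 (0.88), Ldhb (0.77) and Aldoa (0.69) lay highest. Eno1 (0.52) and Gpi1 (0.39) followed it less closely, and Ldha ran against it (-0.70). The 14 points share experiments and the split into inputs and pulldowns, and the values describe these libraries only.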

How the data were processed

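According to their methods and the file headers, the authors trimmed reads, removed molecular identifiers, aligned them to mm10 with Rsubread and counted the 5′ ends of footprints of 25 to 100 nt with plastid, without an offset. Alignment file names carry marks for removed ribosomal RNA and duplicates, and the use of strand and the placement of reads that match several loci are not given in the sources used here. The deposited counts are whole numbers per exon segment of each transcript, in 114 files of 38 libraries. The deposited RPKM columns were not used for any value. Of 67238 coding transcripts, 66750 (99.3%) matched a symbol, which gave 22443 genes with 1 longest transcript each.

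CPM are counts over the sum of these CDS counts, times 1000000. The main test was the quasi-likelihood F test of edgeR 4.0.16 (R 4.3.3), with TMM scaling, filterByExpr and Benjamini-Hochberg adjustment over all genes tested, with group means and no block. The likelihood ratio test that the authors used, DESeq2 1.42.0 and other settings were alternatives. CDS parts were compared with limma 3.58.1 with a pseudocount of 5 and a minimum of 20 counts, and Pkm exon shares by permutation tests (100000 resamples, or exact). Scripts were tested on simulated data. No replicates were duplicates (chi-square per degree of freedom at least 1.48). It was 1.48 to 1.89 between DHPG inputs, 2.83 to 8.88 between DHPG pulldowns, 2.81 to 4.65 with knockdown and 8.61 to 47.5 in the KCl experiment. The small SEs and FDRs with DHPG and knockdown rest on this narrow spread. The study calls its KCl samples biologically independent, with a replicate's resting and activated samples handled together. The labels name no cultures, so p-values measure the spread between these libraries, which may be technical. In the KCl experiment every same-numbered pair within a condition deviated together (r 0.127 to 0.711), whereas with DHPG (-0.228 to 0.066) and knockdown (0.004 to 0.028) numbers paired nothing. The 10 genes, the other lists and the tests were chosen with earlier results of these data known. Named genes were the 10 members and up to 3 genes per direction with the smallest p over the other lists. A gene that met the rule for likeness is not reported here. Sequences were read from the mouse reference genome of the same assembly.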

Additional observations from a re-analysis of the deposited data

How the results depend on the processing

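Calls among the 10 genes changed with the replicates left out and with the settings. Leaving out 1 replicate number at a time, the calls ran from 0 to 3 for resting pulldown over inputs, 0 to 1 for depolarized, 0 to 3 for Pan-TurboID, 0 to 2 for KCl in inputs and in PSD95-TurboID pulldowns, 0 to 3 and 1 to 3 for KCl in knockdown inputs and pulldowns, 1 to 2 for DHPG against resting input and 0 to 1 for knockdown against none, but 8 for DHPG and 9 for knockdown pulldown over input. For the CDS parts they ran from 0 to 7 at rest, 0 to 8 depolarized, 5 to 8 for Pan-TurboID and 0 to 5 for KCl in inputs, and were 10 for DHPG and for knockdown. DHPG and knockdown replicates mostly lay closer together than those of the KCl experiment, so their steadier counts are no sign of better replication. The share of all genes called fell as well where the counts reached 0 at rest and depolarized. For the CDS parts it was 0.0233% in both without the libraries numbered 3, so this loss was not particular to the 10 genes. The Pkm exon 9 share differed by 2.32 to 3.83 points for pulldown and by -3.22 to 3.42 for KCl.

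With the replicate block, 5 genes were called in the depolarized comparison (4 with a length trend as well), 1 for KCl in inputs and in PSD95-TurboID pulldowns (1 in each with the length trend), 5 for knockdown against none (5 with the trend), 4 for KCl in knockdown pulldowns with the trend, 4 in the CDS parts for KCl in inputs, and the Pkm share differed by 3.01 points (permutation p = 0.021). With RLE factors 3 were called at rest and 1 for KCl in inputs, which DESeq2, the transcript with the highest count and the length trend alone gave as well. The depolarized comparison had 1 without a filter, KCl in knockdown inputs 1 with CDS totals alone and 1 with the highest-count transcript, and DHPG against resting input 5 with DESeq2. Counts given here without the share of all genes under the same setting do not set these genes apart from others. Between rest and KCl and between experiments, the block left the spread between replicate numbers out of the error. Calls under the block in those comparisons are therefore not firm. Aldoa (-0.082) and Ldhb (-0.179) reversed for DHPG pulldown over input with CDS totals alone. Over all other alternatives, 1437 values kept their direction and side of the threshold, 56 passed it anew and 38 lost it. With Eno1b counts added to Eno1, the ratio of Eno2 in resting inputs moved from 2.33 to 0.589, and with exon 9 in place of exon 10 the median level of Pkm moved from 555 to 643 CPM per kb, both chosen after seeing the data. The causes were not tested.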
